A study of Mus musculus with 16 samples.

Results

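The difference in gene expression between WT HSCs and HSCs labelled Gfra2-/- was measured over both compartments of the bone marrow (BM) together, and the genes that differed in the same direction in endosteal and in central BM are described. The 15 libraries used, of 16 samples in the series, were 4 endosteal and 4 central WT libraries, 4 endosteal libraries labelled Gfra2-/- and 3 central ones. Each library held a pool of 30 HSCs, sorted as LSK CD48-CD150+ cells from C57/Bl6 mice, either from the bone fraction (endosteal) or from the marrow fraction (central), and was prepared with the Smart-seq2 protocol, which amplifies polyadenylated RNA by PCR without molecular identifiers. Gfra2-/- mice lack the receptor in every cell of the body, so neurons, stroma and blood cells all carry the deletion. The study calls the pools of a group biological replicates, but no source used here says that they came from separate animals, so p-values measure only the spread between these samples.

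GFRα2, encoded by Gfra2, is the receptor that binds neurturin (encoded by Nrtn) and signals through the receptor tyrosine kinase RET, which feeds the RAS to ERK cascade. Cholinergic neurons need it to survive, and Gfra2-/- mice therefore lose much of their cholinergic innervation. In the BM, HSCs of the endosteal surface are known to be more quiescent than those of the central marrow, and quiescent HSCs keep protein synthesis and mitochondrial activity low.

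The labels were first compared with the counts of the deleted gene. Gfra2 (chr14:70890120-70979838 of GRCm38, plus strand) was covered by 1 read in WT library D of endosteal BM and by 4 reads in WT library C of central BM, with 0 in the 6 remaining WT libraries. Among libraries labelled Gfra2-/-, it was covered by 2, 47, 1 and 9 reads in endosteal libraries A to D, and by 0, 1 and 0 reads in the central libraries A to C. The few Gfra2 reads of WT HSCs do not allow a loss to be seen. The 2 endosteal libraries B and D had more Gfra2 reads than any WT library, which is unexpected under their label. The text therefore speaks of libraries labelled Gfra2-/- and also gives the main results without these 2 libraries. The counts do not show which part of the gene the reads came from, so they cannot decide whether the label is right.

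The other members of the pathway were also scarce. Ret had 3 counts in central WT library A, 1 count in endosteal library C labelled Gfra2-/- and 0 in the other 13 libraries. Gfra1, the related receptor for GDNF, had 138 counts in endosteal library D labelled Gfra2-/- and at most 2 counts in every other library. Nrtn, the ligand, had 199 counts in endosteal WT library B, 113 and 155 counts in endosteal libraries A and B labelled Gfra2-/-, and at most 10 counts in the other 12 libraries. Of the 11 genes listed as ligands and receptors of this family, 3 had enough counts to be tested (Nrtn, Gfra4 and Ncam1), and 0 passed with edgeR, where none reached an unadjusted p under 0.05. Gdnf, Artn, Gfra3 and Gfral had 0 counts in all 15 libraries, which allows up to 3 counts in a library.

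Cells of the sort were present in all libraries. The stem cell genes Kit, Hlf and Mecom were detected in every library, with Kit between 491 and 993 CPM (CPM are the counts of a gene relative to the TMM-normalized size of its library). Cd48, which the sort selects against, ranged from 0 to 17.4 CPM. Reads counted on genes ranged from 4416648 to 14003634 in the endosteal WT libraries, from 826487 to 3367289 in the central WT libraries, from 8519094 to 18550008 in the endosteal libraries labelled Gfra2-/- and from 7649803 to 14716308 in the central ones. The central WT libraries were thus shallower than all others, and 40.7% to 65.6% of their reads were not aligned, against 25.5% to 36.4% in the central libraries labelled Gfra2-/-. In log2 units the genotypes differed in reads on genes by 0.45 in endosteal and 2.54 in central libraries (exact two-sided permutation test with genotype permuted within compartment, p = 0.0114, adjusted over 22 library values 0.0419). Reads without a feature took 17.1% to 20.5% of a library in endosteal WT and 19.8% to 29.9% in endosteal libraries labelled Gfra2-/-, and 10.6% to 17.6% and 20.2% to 24.6% in central ones, where the groups did not overlap. This share was higher in libraries labelled Gfra2-/- by 3.99 percentage points in endosteal and 8.74 in central BM (exact two-sided permutation test, p = 0.00327, adjusted over 22 library values 0.018).

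Markers of other blood cells stood out in 4 libraries. The B-cell markers of the list (9 of 10 tested, 0 called, most abundant by CPM Ighm) summed to 4055 CPM in endosteal library D and to 1349 CPM in central library C labelled Gfra2-/-, and to between 46.3 and 658 CPM in the other 13. Neutrophil markers (5 of 12 tested, 0 called, most abundant by CPM Prtn3) summed to 3461 CPM in central WT library D and to at most 434 CPM elsewhere. Monocyte and macrophage markers (7 of 12 tested, 0 called, most abundant by CPM Lyz2) summed to 2974 CPM in central WT library C, to 1736 CPM in central library C labelled Gfra2-/- and to between 320 and 776 CPM in the other 13. In addition, spike-in RNAs took under 0.5% of the reads in 4 libraries, 1 in each group: library D of the WT endosteal, WT central and Gfra2-/- endosteal groups and central library C labelled Gfra2-/-. These 4 libraries are consecutively numbered columns at the end of the table. Of the 10 listed B-cell markers 1 was at 0 in all 15 libraries, Igll1, a gene of B-cell precursors. Of the 12 listed neutrophil markers it was 1 as well, Retnlg. The other members of both lists had reads, so these zeros do not show that such cells were absent.

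With compartment and genotype as terms, 124 of 15416 tested genes (0.804%) passed an FDR of 0.1 for genotype in edgeR's quasi-likelihood test. In libraries labelled Gfra2-/- 43 genes rose (0.279%) and 81 fell (0.525%). All 124 had the same direction within endosteal and within central libraries, as did 58% of all tested genes; since the test used both compartments, this says how evenly the difference was shared and is not independent of the call. Without adjustment, 1837 genes (11.9%) had a p under 0.05 in the additive fit, 1008 higher (6.54%) and 829 lower (5.38%). Both within-compartment contrasts had an unadjusted p under 0.05 for 111 of the 124 genes and for 316 of all tested genes. The groups did not overlap in endosteal libraries for 86 called genes (5.49% of all tested genes) and in central libraries for 99 (11.8%). They overlapped in neither compartment for 69 called genes (1.15%), 17 of them higher (0.415%) and 52 lower (0.739%). Over all libraries, regardless of compartment, WT and Gfra2-/- levels did not overlap for 20 called genes (0.324% of all tested genes), 10 of them higher (0.143%) and 10 lower (0.182%). The 13 called genes with an unadjusted p of 0.05 or more in 1 compartment were mt-Co1, Ptprf, Rnh1, Psme3, Fat1, Gm17130, Gna15, Anxa5, Canx, 9530052C20Rik, Ifitm1, Yy1 and Mynn.

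**Figure D1:**
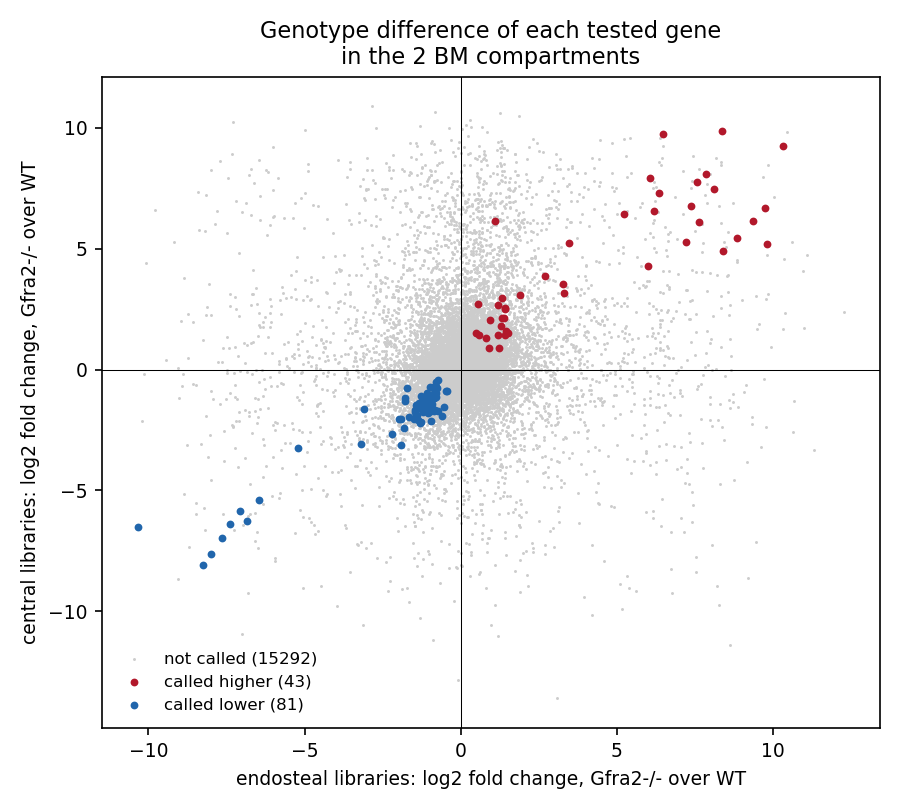
Each point is 1 of the 15416 tested genes, placed by its log2 fold change (libraries labelled Gfra2-/- over WT) within endosteal libraries on the x axis and within central libraries on the y axis; red points are the 43 genes called higher and blue points the 81 called lower. All called genes lie in the upper right or lower left quadrant, while the grey points of the genes not called fill all parts of it.

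Within a single compartment few genes passed. In endosteal libraries 1 gene passed (0.00649%), Gda, and in central libraries 4 did (0.0259%): mt-Nd2, Rnh1, Ptma and mt-Co1. The difference of the genotype effect between the compartments passed for 0 genes with edgeR (0%), with 1074 genes at an unadjusted p under 0.05. Of the called genes, 5 had an unadjusted interaction p under 0.05 in edgeR: Rnh1, a ribonuclease inhibitor (edgeR adjusted p = 0.523), Ptma, which encodes prothymosin alpha, mt-Co1, Canx and Gda. These genes were picked out after their values had been seen.

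The largest group of called genes encoded proteins of the cytosolic ribosome, and all of them were lower in libraries labelled Gfra2-/-. The share called lower over all tested genes was 0.525%. Of 48 tested large-subunit genes 7 fell and 0 rose, and of 32 tested small-subunit genes 5 fell and 0 rose. The numbers called lower were 1 and 0 without the 2 endosteal libraries labelled Gfra2-/- with 9 or more Gfra2 counts (10 of all 16162 tested genes). They were 2 and 2 without the 2 shallowest libraries (central WT A and C), against 14 of all 16507 tested genes. Without the 4 libraries low in spike-in RNAs, and without the 4 high in markers of other blood cells, they were 0 and 0. With DESeq2 size factors they were 8 and 6, against 105 of all 15416 tested genes. The median log2 fold change was -0.52 over the large-subunit genes and -0.55 over the small-subunit genes, against 0.11 over all 15416 tested genes, and with spike-in size factors it turned to 0.26 and 0.20 against 0.74. Within the compartments it was -0.47 and -0.59 in endosteal and -0.47 and -0.43 in central libraries. Among the 12 genes that fell were Rplp1, Rplp2, Rpl41, Rpl26, Rpl38, Rpl13a, Rpl8, Rps15, Rps20 and Rpsa. Ribosomal protein genes together took 3.58%, 3.15%, 2.80% and 3.25% of the reads on genes in WT endosteal libraries A to D, and 2.53%, 1.78%, 2.56% and 1.75% in those labelled Gfra2-/-. In central libraries they took 3.78%, 3.63%, 3.45% and 3.26% in WT and 2.44%, 3.38% and 2.94% in those labelled Gfra2-/-. The shares did not overlap in endosteal libraries, and in central libraries library B labelled Gfra2-/- lay above WT library D. With counts of every library thinned to the shallowest total, the large- and small-subunit medians were -0.50 and -0.61 against -0.01 over all genes. Of 46 and 30 tested genes 10 and 9 were then called lower, against 139 of all 11240 tested genes. The part of the share of reads without a feature, which also differed between the genotypes, was not tested.

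Rplp1 encodes a protein of the acidic stalk of the large subunit, which recruits translation factors. Its level (chr9:61913284-61914542) was 1724, 943, 824 and 1037 CPM in WT endosteal libraries A to D and 636, 351, 597 and 381 CPM in those labelled Gfra2-/-. In central libraries it was 2892, 2500, 3026 and 1937 CPM in WT and 656, 1176 and 1124 CPM in those labelled Gfra2-/-. Within each compartment every library labelled Gfra2-/- lay below every WT library. The log2 fold change was -1.29 (SE 0.20, edgeR adjusted p = 0.0224), with -1.20 in endosteal and -1.39 in central libraries. Its partner in the stalk, Rplp2 (chr7:141447370-141451585), changed by -1.28 (SE 0.23, edgeR adjusted p = 0.0247).

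Rps15, a protein of the small subunit that is needed for its export from the nucleus (chr10:80292453-80294114), stood at 579, 383, 291 and 372 CPM in endosteal WT libraries and at 229, 189, 201 and 135 CPM in those labelled Gfra2-/-. Its central values were 670, 682, 917 and 602 CPM in WT and 233, 331 and 365 CPM in those labelled Gfra2-/-. Again the groups did not overlap in either compartment, and the log2 fold change was -1.16 (SE 0.20, edgeR adjusted p = 0.0224). Rpl41, the shortest protein of the large subunit (chr10:128548114-128549305), changed by -1.21 (SE 0.22, edgeR adjusted p = 0.0247).

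Several called genes outside these lists resemble ribosomal protein genes. Of the other genes called lower, 10 share between 31.7% and 100% of their 31-base stretches with the transcript of a ribosomal protein gene, among them Gm3699 and Gm10076 with Rpl41, Rpsa-ps10 with Rpsa, Gm10275 and Gm11631 with Rpl12, and Gm10073 with Rplp1. Reads of such copies and of their parent genes can be split between them in counting, so these 10 are uncertain as separate members.

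The promoters of ribosomal protein genes are shown because 12 of these genes moved together. The sequences come from the RefSeq table of GRCm38.p6, which held the window from 250 bases before to 50 bases after the start for 7 of the 12. The searched motif was CCGGAAG on either strand (CTTCCGG in reverse), the core of the element that ETS family factors bind, and no other motif was searched. It was in the window of 5 of these 7 genes (71.4%), of 25 of the 60 matched among the 80 tested ribosomal protein genes (41.7%), of 17 of the 47 matched among the 81 genes called lower (36.2%), of 6 of the 24 matched among the 43 called higher (25%) and of 2683 of 27025 genes with a window (9.93%). Among the 74 tested nuclear respiratory genes it was in 14 of the 60 matched (23.3%). The 27025 genes include many that were not tested here, and the share over tested genes was not computed. The shares of called genes can therefore not be read against 9.93% as an enrichment. Below are the 80 bases from 60 before to 20 after the start, with the motif in capitals, of Rpl41 (chr10:128549149-128549228, minus strand), Rpl26 (chr11:68901506-68901585, plus strand), Rpl38 (chr11:114668520-114668599, plus strand) and, as a called gene without the motif in its window, Rps15 (chr10:80292371-80292450, plus strand). A match is a description of the letters and not a site that was measured.
Rpl41: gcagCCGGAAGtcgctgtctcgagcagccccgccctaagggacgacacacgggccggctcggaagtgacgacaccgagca
Rpl26: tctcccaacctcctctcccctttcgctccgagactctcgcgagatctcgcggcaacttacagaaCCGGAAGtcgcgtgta
Rpl38: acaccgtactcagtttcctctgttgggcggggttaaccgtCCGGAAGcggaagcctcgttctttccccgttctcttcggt
Rps15: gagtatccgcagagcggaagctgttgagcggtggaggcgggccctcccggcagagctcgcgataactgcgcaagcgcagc

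Genes of the respiratory chain, which makes ATP in mitochondria, formed the next group. The share called lower over all tested genes was 0.525%. Of 74 tested nuclear genes of the chain and of ATP synthase, 7 fell (Atp5e, Atp5mpl, Cox6a1, Cox6b1, Ndufa2, Ndufb5 and Ndufb7) and 0 rose. In each of the same 4 fits with libraries left out 0 were called. With DESeq2 size factors 9 were called lower, and 11 of 72 in thinned counts, against 105 of 15416 and 139 of 11240 over all genes. The median log2 fold change of the 74 was -0.44 (0.09 against 0.74 over all genes with spike-in size factors), with -0.57 in endosteal and -0.53 in central libraries, and 62 of them had a negative value. Atp5e encodes the epsilon subunit of ATP synthase (chr2:174461072-174464105). It stood at 714, 255, 193 and 272 CPM in endosteal WT libraries and at 156, 144, 158 and 97.6 CPM in those labelled Gfra2-/-. In central libraries its values were 894, 492, 1058 and 470 CPM in WT and 121, 171 and 227 CPM in those labelled Gfra2-/-. The groups were apart in both compartments, and the log2 fold change was -1.69 (SE 0.31, edgeR adjusted p = 0.0247). Atp5mpl, a small protein bound to ATP synthase, changed by -1.24 (SE 0.25, edgeR adjusted p = 0.0426), and its 15 values did not overlap between the genotypes over the compartments. Cox6a1, a subunit of cytochrome c oxidase, changed by -1.29 (SE 0.27, edgeR adjusted p = 0.0519).

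The mitochondrial genome, which encodes 13 proteins of the same chain, did not move as a unit. Over all tested genes 0.525% fell and 0.279% rose. Of the 13 protein-coding genes of the mitochondrial genome 4 fell (mt-Nd1, mt-Nd2, mt-Nd4 and mt-Nd6), 1 rose (mt-Co1) and 12 had a negative log2 fold change. Without the 2 endosteal libraries with Gfra2 counts 2 were called lower and 1 higher, without the 2 shallowest libraries 2 lower and 0 higher, and 0 were called both without the libraries low in spike-in RNAs and without those high in markers of other blood cells. Their median was -0.45 (0.17 against 0.74 over all genes with spike-in size factors), with -0.34 in endosteal and -0.88 in central libraries. mt-Nd2, a subunit of complex I (chrM:3914-4951), had the smallest p of all genes. It stood at 2513, 1231, 1130 and 1637 CPM in endosteal WT libraries and at 762, 595, 721 and 531 CPM in those labelled Gfra2-/-. Central values were 4572, 4743, 6394 and 3479 CPM in WT and 572, 1136 and 1435 CPM in those labelled Gfra2-/-. The lowest WT library of each compartment lay above the highest library labelled Gfra2-/-, with a log2 fold change of -1.72 (SE 0.24, edgeR adjusted p = 0.016). mt-Nd4 (chrM:10167-11544) changed by -0.87 (SE 0.15) and mt-Nd6 (chrM:13552-14070) by -1.62 (SE 0.25), each with an edgeR adjusted p of 0.0224. mt-Nd6 is encoded on the other strand than the rest, and since reads were counted without strand, those from transcripts antisense to it cannot be told apart.

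mt-Co1, which encodes the catalytic subunit of cytochrome c oxidase (chrM:5328-6872), went the other way. It stood at 4108, 5922, 7304 and 4727 CPM in endosteal WT libraries and at 9314, 4736, 7447 and 9552 CPM in those labelled Gfra2-/-, and these ranges overlapped. In central libraries it stood at 2431, 2839, 1467 and 2278 CPM in WT and at 6834, 7496 and 4722 CPM in those labelled Gfra2-/-, with no overlap. The log2 fold change was 0.96 (SE 0.21, edgeR adjusted p = 0.0613), with 0.49 in endosteal and 1.49 in central libraries. The share of reads on the mitochondrial genome lay between 3.24% and 8.24% and differed between the genotypes by -0.54 percentage points in endosteal and -1.28 in central libraries (exact two-sided permutation test, p = 0.129, adjusted over 22 library values 0.259). Of 77 tested genes of the mitochondrial ribosome, 38 of the proteasome and 53 of translation initiation, 0 were called, with medians of -0.03, -0.06 and -0.05.

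**Figure D2:**
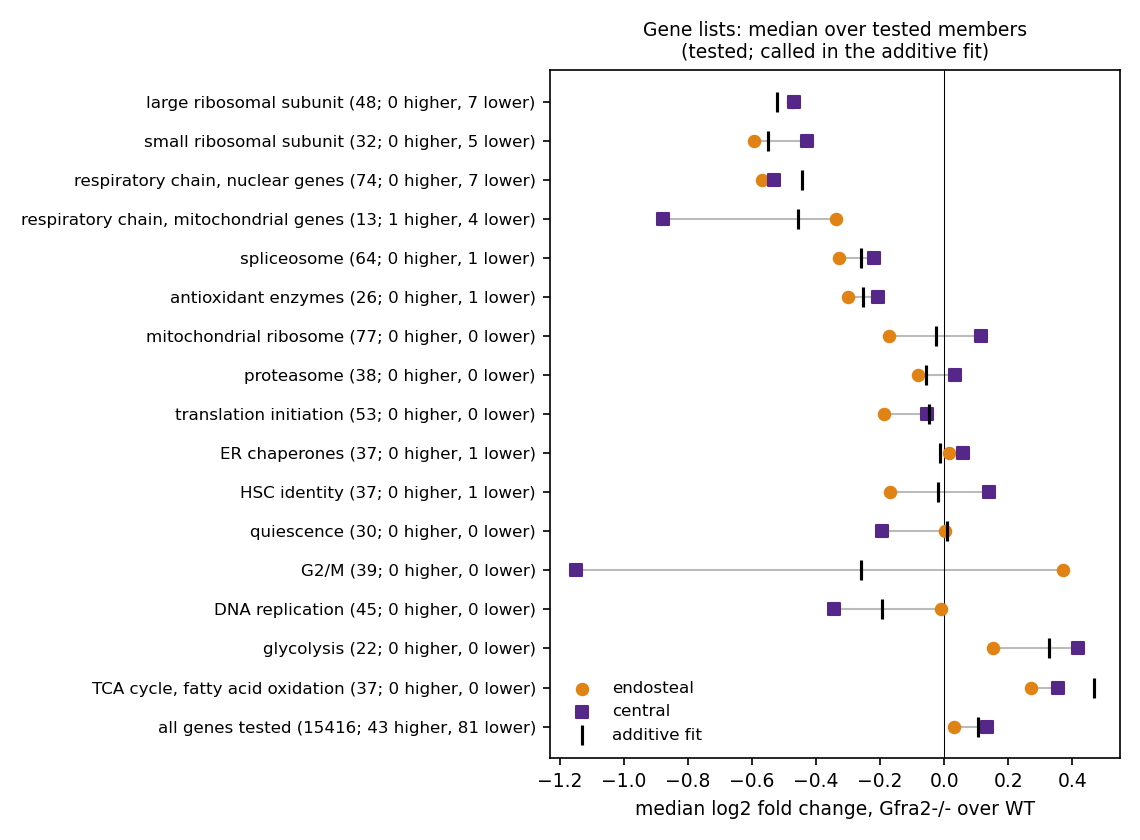
For 16 gene lists and all tested genes, the median log2 fold change (libraries labelled Gfra2-/- over WT) is shown on the x axis for endosteal libraries (orange circles), central libraries (purple squares) and the additive fit (black bars), with the number of tested and called members beside each name. The ribosomal and respiratory lists lie below 0 in both compartments; in the large-subunit list the square covers the circle, since both medians are -0.47, and with spike-in size factors the ribosomal and respiratory medians lay between 0.09 and 0.26 while that of all genes lay at 0.74.

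The direction of these groups is relative to the other genes of the same library. The share of spike-in reads differed between the genotypes by -0.25 percentage points in endosteal and -3.56 in central libraries. An exact two-sided permutation test gave p = 0.102, adjusted over 22 library values 0.224. Scaling by spike-in RNAs thus moves the genotype difference more in central than in endosteal libraries. When libraries were scaled by their spike-in RNAs, the median over all tested genes moved from 0.11 to 0.74, those of large-subunit, small-subunit, nuclear respiratory and mitochondrially encoded genes moved to 0.26, 0.20, 0.09 and 0.17, and 0 members of these lists were called. Relative to all genes the medians were then -0.48, -0.54, -0.65 and -0.57. Single genes called lower moved in the same way, with log2 fold changes of -0.49 for Rplp1, -0.44 for Rps15, -0.69 for Atp5e, -0.89 for mt-Nd2, -0.91 for mt-Nd6, -0.18 for mt-Nd4, -0.53 for Dad1 and -0.023 for Ifitm1. Gda, at -2.20, moved less. Under this scaling 171 genes were called, 150 higher and 21 lower, where the TMM-normalized fit called 43 higher and 81 lower, and 24 of the 124 genes were among the 171. Which of the scalings is closer to the RNA content of the cells was not tested, and in pools of a fixed number of cells less RNA per cell and less of it captured cannot be told apart.

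Leaving out groups of libraries kept the sign of these medians and lowered the number of calls. Without the 4 libraries low in spike-in RNAs 0 genes were called with edgeR (1696 at an unadjusted p under 0.05), and the medians of the same 4 lists were -0.46, -0.52, -0.46 and -0.45 against 0.16 over all genes. In these 4 libraries alone, with 1 per group and so without a test, they were -0.89, -0.89, -0.86 and -0.52 in the endosteal pair and -0.28, -0.17, -0.12 and -0.28 in the central pair, against 0 over all genes. Without the 4 libraries high in markers of other blood cells, 3 of which are also among those low in spike-in RNAs, 0 genes were called as well (1665 at an unadjusted p under 0.05), and the medians were -0.46, -0.49, -0.45 and -0.43 against 0.10. Without the 2 endosteal libraries whose Gfra2 counts go against their label 18 genes were called, 8 higher and 10 lower, 17 of them among the 124, with medians of -0.32, -0.38, -0.42 and -0.33 against 0.12. The called genes that were still tested kept their direction in these fits, in 121 of 121, 123 of 123 and 122 of 122 cases. These fits reuse libraries on which the genes were called, so the kept signs are not independent of the main fit.

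Among well-expressed genes, length moved with the difference between the genotypes. Among 3851 genes with a mean log2 CPM of at least 6, the median log2 fold change was -0.72 for the 45 genes with under 500 exonic bases, -0.53 for the 86 from 500 to 999, -0.27 for the 341 from 1000 to 1999 and between -0.03 and 0.00 for longer ones. Over all 15346 tested genes with a length it was -0.19 under 500 bases and between 0.09 and 0.17 in the longer classes. Genes called lower had a median exonic length of 1726 bases, those called higher 2814.5 and all tested genes 3710. Genes of under 1000 bases took 5.76% to 6.44% of the reads in endosteal WT libraries and 3.55% to 4.96% in those labelled Gfra2-/-, and 6.50% to 7.29% and 4.32% to 6.24% in central ones, without overlap in either compartment. With an offset for length in each library, added after the data had been seen, 281 genes were called, 50 higher and 231 lower. The ribosomal medians were then -0.78 and -0.78 against -0.10 over all genes, with 13 large-subunit, 12 small-subunit and 15 nuclear respiratory genes called lower. This offset was fitted over all tested genes, and it moved their median from 0.11 to -0.10. Whether it removed the trend of the well-expressed genes, and the part of length in the calls, was not tested.

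**Figure D3:**
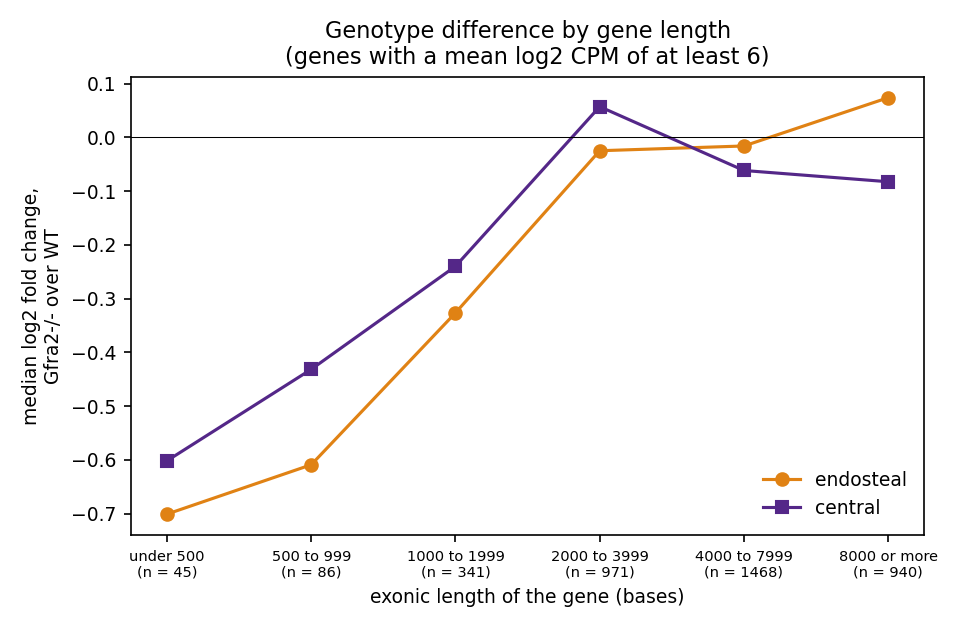
The median log2 fold change (libraries labelled Gfra2-/- over WT) of genes with a mean log2 CPM of at least 6 is shown on the y axis for 6 classes of exonic length in bases on the x axis, with endosteal libraries as orange circles and central libraries as purple squares. In both compartments genes of under 1000 bases lie lowest, at -0.70 and -0.61 in endosteal and -0.60 and -0.43 in central libraries, and genes of 2000 bases or more lie near 0.

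Of 16 tested nuclear and rRNA-related noncoding or neighbouring transcripts in the list, 3 fell, Gm42418, Lars2 and Snhg8, and 0 rose. Over all tested genes 0.525% fell. Gm42418 (chr17:39846958-39848788) lies over a copy of ribosomal RNA sequence. It had 911, 494, 446 and 447 CPM in endosteal WT libraries and 206, 93.1, 201 and 104 CPM in those labelled Gfra2-/-, and 5669, 2301, 6519 and 1885 CPM in central WT libraries and 192, 248 and 983 CPM in those labelled Gfra2-/-. The groups did not overlap in either compartment, with a log2 fold change of -2.46 (SE 0.41, edgeR adjusted p = 0.0224). Lars2, the leucyl-tRNA synthetase of mitochondria (chr9:123366927-123462666), changed by -1.98 (SE 0.35, edgeR adjusted p = 0.0224) and Gm15564 (chr16:35966752-35983230) by -2.01 (SE 0.35, edgeR adjusted p = 0.0224). The CPM of Lars2 varied 47.8-fold over the 15 libraries while its ratio to Gm15564 stayed between 2.41 and 2.70, and the transcripts of these genes share 22 of the 816 stretches of 31 bases in Gm15564. Both are therefore uncertain as separate members, and whether their reads come from a common source was not tested. The ratio of Lars2 to Gm42418 ranged from 3.10 to 17.0.

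Among other genes called lower, Gda had the smallest p within endosteal libraries. It encodes guanine deaminase, which breaks down guanine (chr19:21391307-21473445). Endosteal values were 88.2, 164, 82.8 and 98.7 CPM in WT libraries and 18.1, 18.1, 9.14 and 5.61 CPM in those labelled Gfra2-/-. Central values were 197, 207, 133 and 197 CPM in WT and 57.7, 85.4 and 33.9 CPM in those labelled Gfra2-/-. No library labelled Gfra2-/- reached the WT range of its compartment. The log2 fold change was -2.40 (SE 0.39, edgeR adjusted p = 0.0224), with -3.08 in endosteal and -1.64 in central libraries.

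Dad1, a subunit of the enzyme that attaches sugars to new proteins in the endoplasmic reticulum (chr14:54235479-54254104), separated the genotypes over all libraries. It had 335, 258, 281 and 314 CPM in endosteal and 399, 266, 189 and 291 CPM in central WT libraries. In libraries labelled Gfra2-/- it had 168, 141, 123 and 131 CPM in endosteal and 133, 108 and 139 CPM in central BM. The lowest WT value, 189 CPM, lay above the highest value labelled Gfra2-/-, 168 CPM, and the log2 fold change was -1.12 (SE 0.20, edgeR adjusted p = 0.0247). Hdgf, a nuclear protein that binds chromatin (chr3:87906321-87916132), also separated over all libraries, at 265 to 463 CPM in endosteal and 343 to 702 CPM in central WT libraries against 92.8 to 183 CPM and 125 to 202 CPM in those labelled Gfra2-/- (log2 fold change -1.35, SE 0.24, edgeR adjusted p = 0.0247). Of 64 tested spliceosome genes only Hnrnpd was called, with a log2 fold change of -1.45 (SE 0.33, edgeR adjusted p = 0.077) and a list median of -0.26, and it passed in 5 of 15 fits with 1 library left out.

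Genes called higher were fewer than those called lower, and many were near 0 in WT libraries. Their median level was 4.36 on the log2 CPM scale, against 7.30 among the genes called lower. In 18 of the 43 all WT libraries had 3 counts or fewer. These genes passed the filter on low counts mainly through libraries labelled Gfra2-/-, and central WT libraries were the shallowest. Their low WT level is thus partly set by the filter and by depth, and their p-values are a description only. For such genes counts are given in place of fold changes.

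Mtmr9 encodes an inactive relative of the myotubularin lipid phosphatases, which partners active members of that family (chr14:63519651-63543982). It had 0.975, 12.9, 5.36 and 3.35 CPM in endosteal WT libraries and 64.1, 40.4, 41.4 and 106 CPM in those labelled Gfra2-/-. Central WT libraries had 1.81, 0.622, 0 and 2.02 CPM, and central libraries labelled Gfra2-/- 23.8, 74.8 and 37.1 CPM. The highest of the 8 WT values lay below the lowest of the 7 values labelled Gfra2-/-. The log2 fold change was 4.21 (SE 0.70, edgeR adjusted p = 0.0224).

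Slc7a8, which transports neutral amino acids across the plasma membrane (chr14:54722209-54781946), had 34.1, 2.73, 11.4 and 2.95 CPM in endosteal and 38.0, 13.7, 0 and 3.37 CPM in central WT libraries. It had 138, 132, 97.9 and 131 CPM in endosteal and 145, 77.9 and 149 CPM in central libraries labelled Gfra2-/-. The genotypes did not overlap over all libraries, and the log2 fold change was 3.24 (SE 0.67, edgeR adjusted p = 0.0507). Yme1l1, a protease of the inner mitochondrial membrane (chr2:23156369-23199260), rose by a log2 fold change of 1.43 (SE 0.30, edgeR adjusted p = 0.0519), from 36.6 to 110 CPM in endosteal and 58.8 to 86.4 CPM in central WT libraries to 111 to 374 CPM and 180 to 207 CPM in those labelled Gfra2-/-. In endosteal BM its ranges nearly met. Trpc6, a cation channel (chr9:8544142-8680741), had 35.1, 21.3, 25.6 and 58.6 CPM in endosteal WT libraries and 155, 82.2, 126 and 159 CPM in those labelled Gfra2-/-. In central BM it had 2.72, 26.4, 10.7 and 7.75 CPM in WT and 148, 119 and 46.0 CPM in those labelled Gfra2-/-. The groups overlapped in neither compartment, with a log2 fold change of 2.44 (SE 0.46, edgeR adjusted p = 0.032).

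Car2 encodes carbonic anhydrase 2, which HSCs and erythroid cells both express (chr3:14886273-14900770). Endosteal values were 1197, 1129, 1104 and 1426 CPM in WT libraries and 2349, 1728, 2539 and 2390 CPM in those labelled Gfra2-/-, and central values were 982, 863, 731 and 721 CPM in WT and 2255, 1303 and 1082 CPM in those labelled Gfra2-/-. The groups did not overlap within a compartment, and the log2 fold change was 0.90 (SE 0.16, edgeR adjusted p = 0.0224). Of the 10 tested erythroid markers, Car2 included, 1 was called and 8 were positive, with a median log2 fold change of 2.09 and with Car2 the most abundant by CPM. That median was 0.36 without the 4 libraries high in markers of other blood cells, 0.63 without the 4 low in spike-in RNAs, 0.74 without the 2 endosteal libraries with Gfra2 counts and 0.058 over the 4 markers tested in thinned counts, but 3.55 over the 12 tested without the 2 shallowest libraries. The other erythroid markers of the list summed to 89.7 to 158 CPM in endosteal and 61.6 to 181 CPM in central WT libraries, and to 81.3 to 726 CPM and 93.2 to 182 CPM in those labelled Gfra2-/-. Slc4a1, which marks red cell precursors, had at most 2 counts in the 8 WT libraries, and among libraries labelled Gfra2-/- it had 10 counts in endosteal library A and 0 in the other 6. The part of erythroid RNA in the Car2 difference was not tested.

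Kmt2d, a histone H3 lysine methyltransferase (chr15:98831669-98871204), had 143, 466, 291 and 166 CPM in endosteal WT libraries and 411, 592, 524 and 529 CPM in those labelled Gfra2-/-, so WT library B lay within the range of the others. In central BM it had 109, 71.2, 96.5 and 123 CPM in WT and 664, 309 and 280 CPM in those labelled Gfra2-/-, without overlap. The log2 fold change was 1.47 (SE 0.30, edgeR adjusted p = 0.0426). Among noncoding RNAs, Gm19590 (chr5:75833035-75835645) had 180, 168, 128 and 90.1 CPM in endosteal WT libraries and 383, 275, 486 and 224 CPM in those labelled Gfra2-/-. Its central values were 85.1, 69.6, 75.1 and 91.7 CPM in WT and 303, 364 and 170 CPM in those labelled Gfra2-/-. Gm19590 did not overlap in either compartment and rose by a log2 fold change of 1.51 (SE 0.25, edgeR adjusted p = 0.0224). Gm17087 (chr17:8565852-8566950), likewise without overlap in either compartment, rose by 1.91 (SE 0.39, edgeR adjusted p = 0.0426).

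Ccnb1ip1, a ubiquitin ligase known from meiotic crossing over (chr14:50789248-50807732), had 0 counts in all 8 WT libraries, which allows up to 3 counts in a library. In libraries labelled Gfra2-/- its counts were 216, 659, 166 and 21 in endosteal BM and 11, 70 and 136 in central BM (edgeR adjusted p = 0.0403). It passed the filter only through these libraries, so this p-value is a description. Central library A labelled Gfra2-/-, with 11 counts, held 14716308 reads on genes, against 826487 to 3367289 in the central WT libraries. These counts were not scaled for depth. Hoxaas2, an RNA antisense to the HoxA cluster (chr6:52165674-52169564), had at most 1 count in each WT library. In libraries labelled Gfra2-/- its counts were 90, 156, 110 and 1 in endosteal BM and 231, 3 and 149 in central BM, so endosteal library D and central library B did not show the reads of the rest (edgeR adjusted p = 0.0426). Chil5, a chitinase-like protein of myeloid cells (chr3:106016919-106032814), had 1 count in central WT library D and 0 in the other WT libraries, against counts of 22, 2, 80 and 282 (endosteal) and 298, 75 and 1 (central) in libraries labelled Gfra2-/- (edgeR adjusted p = 0.0519).

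**Figure D4:**
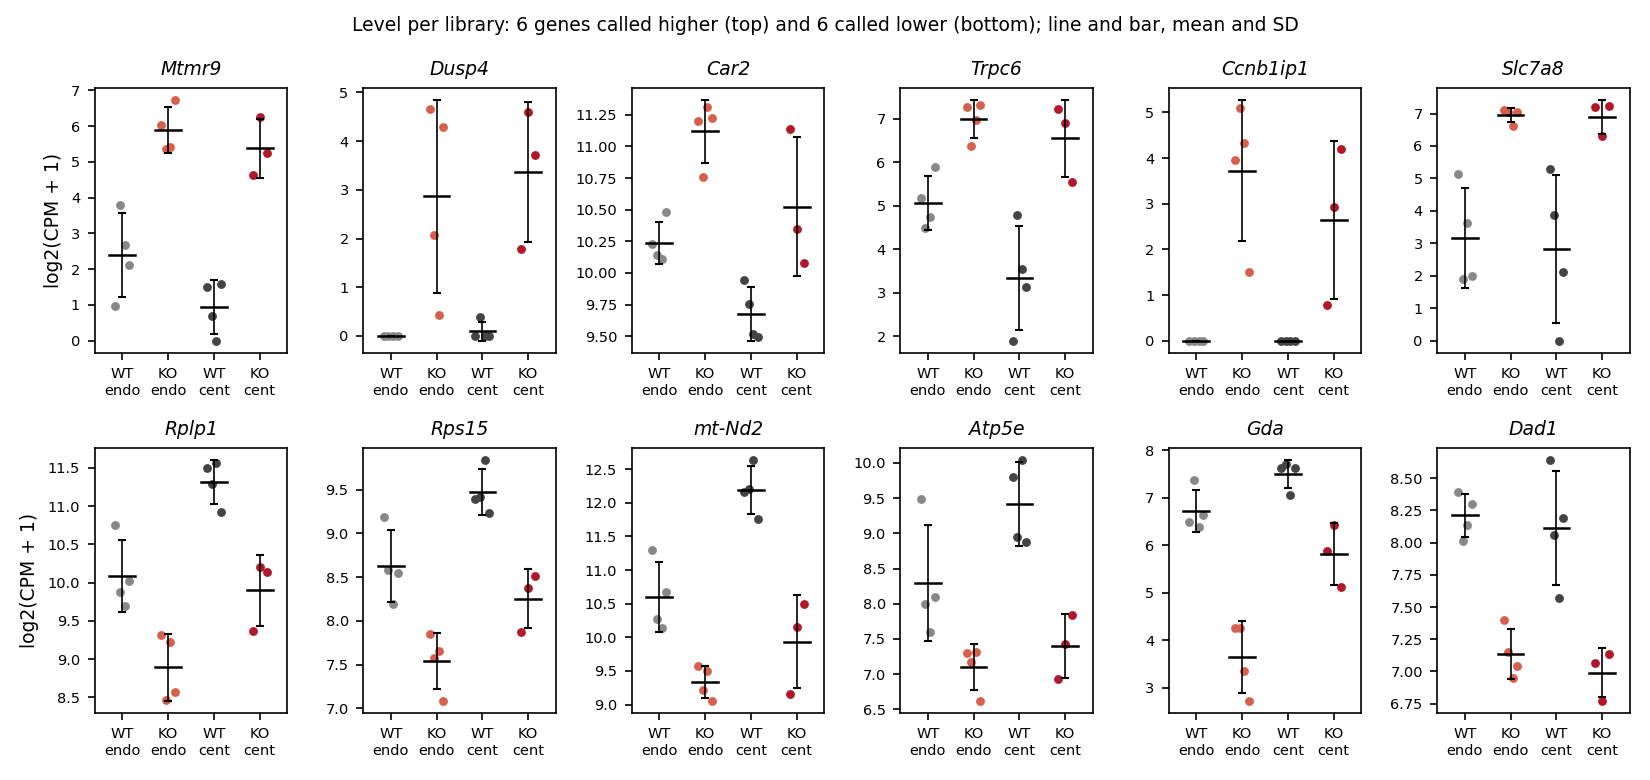
Each panel shows 1 gene, with log2(CPM + 1) on the y axis and a point for each of the 15 libraries in 4 groups on the x axis (WT and Gfra2-/-, marked KO, in endosteal and central BM); lines are group means and bars are SD (n = 4, and n = 3 for central Gfra2-/-). Mtmr9, Slc7a8 and Ccnb1ip1 in the upper row and Dad1 in the lower row separate the genotypes over all libraries, while Rplp1, Rps15, mt-Nd2 and Gda separate them within each compartment; in Dusp4 endosteal library C labelled Gfra2-/- lies near the WT level.

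Downstream of RET, the RAS to ERK cascade carries the signal to the nucleus, where phosphatases of the DUSP family switch it off. Dusp4, such a phosphatase (chr8:34807297-34819894), had 1 count in central WT library B and 0 counts in the other 7 WT libraries. In libraries labelled Gfra2-/- its counts were 360, 63, 3 and 213 in endosteal BM and 37, 246 and 95 in central BM, so endosteal library C alone was near the WT level (edgeR adjusted p = 0.0224). It was the only called gene among 16 tested genes known to respond to RET and ERK signalling, whose median log2 fold change was -0.16. In the same list Spred2, an inhibitor of RAS signalling, had -2.22 (SE 0.74, edgeR adjusted p = 0.206) and Myc 0.96 (SE 0.35, edgeR adjusted p = 0.249).

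Of 25 tested genes of the cascade itself only Mapk3, which encodes the kinase ERK1 (chr7:126759601-126765819), was called, and the list median was -0.16. It had 110, 101, 56.2 and 148 CPM in endosteal WT libraries and 25.0, 32.4, 53.7 and 43.6 CPM in those labelled Gfra2-/-. Central values were 120, 141, 268 and 196 CPM in WT and 22.4, 58.8 and 63.4 CPM in those labelled Gfra2-/-. The groups did not overlap in either compartment, though endosteal WT library C and library C labelled Gfra2-/- came close, and the log2 fold change was -1.65 (SE 0.33, edgeR adjusted p = 0.0426). Rps6ka1, a kinase that ERK activates, had a log2 fold change of 1.09 (SE 0.31, edgeR adjusted p = 0.136).

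Ptprf, the receptor tyrosine phosphatase LAR, which is known to take part in neurite growth (chr4:118208213-118291405), was called but not shared evenly. Its counts were 521, 378 and 122 in central libraries labelled Gfra2-/- and 0, 1, 0 and 0 in endosteal ones, against 1, 2, 0 and 0 in central WT libraries and 0 in all 4 endosteal ones (edgeR adjusted p = 0.0849). The within-compartment p of edgeR was 0.284 in endosteal libraries, and with 1 library left out it was called in 5 of 15 fits. Of 19 tested tyrosine phosphatases it was the only called gene. Ptpn6, which dampens cytokine receptor signals in blood cells, had 0.89 (SE 0.28, edgeR adjusted p = 0.185).

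Among genes that define HSCs 1 was called. Of 37 tested HSC identity genes 1 fell, Ifitm1, and 0 rose, where 0.804% of all tested genes were called. Against that share, 0 or 1 calls in a list of this size say nothing particular about its members. This holds for every list here with 0 or 1 calls. The median log2 fold change of the 37 was -0.02, and 17 members were positive and 20 negative. Ifitm1, an interferon-induced membrane protein, stood at 1314 ± 102 CPM (SD, n = 4) in endosteal WT libraries and 797 ± 182 CPM (SD, n = 4) in those labelled Gfra2-/-, and at 1436 ± 183 CPM (SD, n = 4) and 1079 ± 151 CPM (SD, n = 3) in central ones. Its log2 fold change was -0.58 (SE 0.14, edgeR adjusted p = 0.0981), and with 1 library left out it passed in 0 of 15 fits. Tal1, a transcription factor of early haematopoiesis, had -1.40 (SE 0.36, edgeR adjusted p = 0.116). Of 50 tested receptors and adhesion molecules for niche signals 0 were called, with a median of 0.11. Of 35 acetylcholine and adrenergic genes 7 were tested and 0 called; Chrna7, Adrb3 and Chat were among those at 0 counts in all 15 libraries.

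The listed cell cycle genes held no call. Of 39 tested genes of G2/M, 45 of DNA replication, 18 of G1 and 30 of quiescence, 0 were called in the additive fit. The share over all tested genes was 0.804%, so 0 calls in these lists are near it and are no result about their members. The median of the G2/M genes had opposite signs, 0.37 in endosteal and -1.15 in central libraries, while that of the replication genes was -0.01 and -0.34 and that of the quiescence genes 0.00 and -0.19. Of 22 tested genes of glycolysis and 37 of the TCA cycle and fatty acid oxidation 0 were called. Their medians were 0.33 and 0.47 against 0.11 over all genes. The glycolysis median was 0.60 without the 4 libraries high in markers of other blood cells and -0.02 over the 19 tested in thinned counts. The other median was 0.21 without those 4 libraries, 0.22 without the 4 low in spike-in RNAs and 0.32 in thinned counts. Hadh, which acts in the oxidation of fatty acids, had 1.27 (SE 0.38, edgeR adjusted p = 0.156).

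Antioxidant and folding genes gave single calls. Txn1, which encodes thioredoxin, was the only one of 26 tested antioxidant genes called, with -1.002 (SE 0.22, edgeR adjusted p = 0.0636), and its 15 values did not overlap between the genotypes; with 1 library left out it passed in 6 of 15 fits. Prdx2, which reduces peroxides with the help of thioredoxin, had -0.84 (SE 0.24, edgeR adjusted p = 0.145). Canx, a chaperone of the endoplasmic reticulum, was the only one of 37 such genes called (-0.999, SE 0.25, edgeR adjusted p = 0.0981), with 892 ± 410 CPM (SD, n = 4) and 615 ± 197 CPM (SD, n = 4) in endosteal and 1443 ± 227 CPM (SD, n = 4) and 491 ± 23.7 CPM (SD, n = 3) in central WT libraries and those labelled Gfra2-/-. Canx passed in 3 of 15 fits with 1 library left out. Among heat shock chaperones 0 of 25 were called; Hspa8 had 0.84 (SE 0.22, edgeR adjusted p = 0.123) and Hsp90ab1 -0.38 (SE 0.10, edgeR adjusted p = 0.123).

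The number of called genes rested on single libraries. With each of the 15 libraries left out in turn it lay between 15 and 159, and leaving out any of 9 libraries moved it by over 1.5 times. It was lowest without central library A labelled Gfra2-/-. In all 15 of these fits 14 genes passed, namely Car2, Ccnb1ip1, Dusp4, Gm19590 and Mtmr9, which rose, and Gda, Gm15564, Gm42418, Lars2, Rplp1, Rps15, mt-Nd2, mt-Nd4 and mt-Nd6, which fell. Ccnb1ip1 and Dusp4 had few or no counts in WT libraries and passed the filter on low counts only through libraries labelled Gfra2-/-. Their p-values in these fits are therefore a description only.

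**Figure D5:**
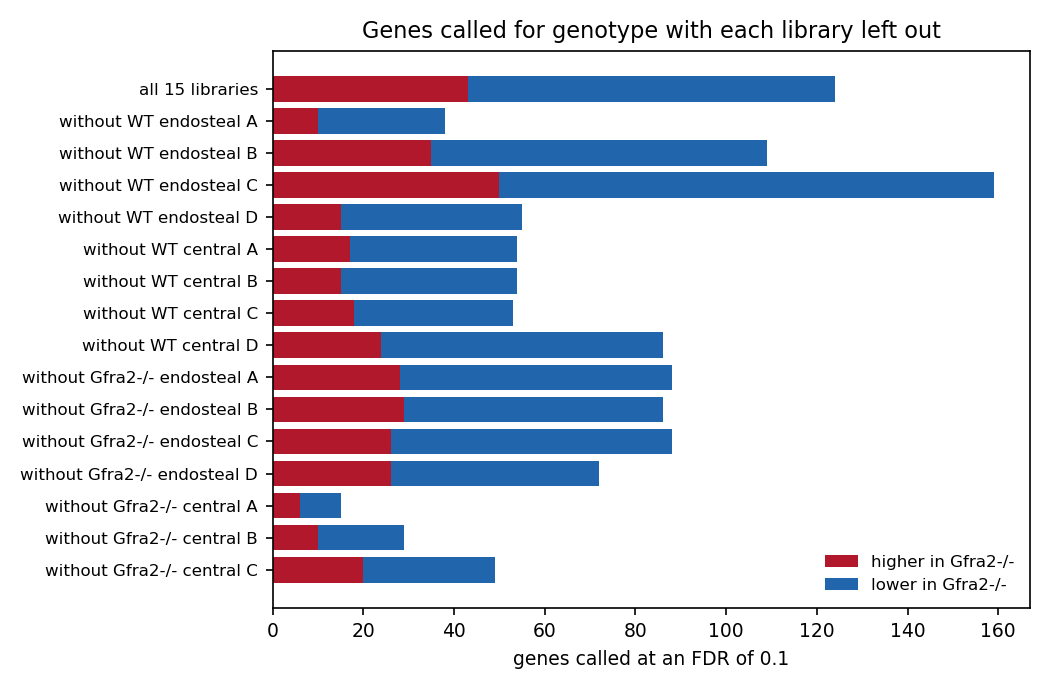
Bars give the number of genes called at an FDR of 0.1 on the x axis, split into those higher (red) and lower (blue) in libraries labelled Gfra2-/-, with all 15 libraries and with each library left out (y axis). The total falls from 124 to 15 without central library A and to 29 without central library B labelled Gfra2-/-, and rises to 159 without endosteal WT library C.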

How the data were processed

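The authors sorted pools of 30 cells, aligned the reads to the mouse genome (mm10, GRCm38) with GSNAP and counted them per gene without regard to strand with HTSeq 0.5.3p3, and the deposited values are these counts, without normalization, for 46078 genes, 92 spike-in RNAs and 5 summary categories. Summary categories and spike-in RNAs stayed out of library sizes and tests; reads without a feature took 10.6% to 29.9% of a library, ambiguous ones 4.08% to 9.25% and unaligned ones 20.1% to 65.6%. A further column of counts (1) could not be tied to a sample and was left out. Libraries of a group are lettered in table order, since the columns carry no replicate numbers; libraries of the same group correlated at 0.732 to 0.821 (Pearson, log2 CPM) and no columns were identical. Symbols, positions and exonic lengths came from GENCODE M21, which holds 45229 of the genes.

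The analysis used edgeR 4.0.16 in R 4.3.3 (filterByExpr on the 4 groups, TMM, quasi-likelihood test, Benjamini-Hochberg adjustment, FDR of 0.1), with compartment and genotype as additive terms. Within-compartment contrasts and the interaction came from a fit of the 4 groups over the same libraries. CPM use the TMM-normalized library size. Where all libraries of a genotype had 3 counts or fewer, counts replace the fold change. Library values were compared by exact permutation of genotype within compartment. The alternatives used DESeq2 1.42.0 size factors or its Wald test, spike-in size factors, limma-voom (limma 3.58.1), other filters, thinned counts, other models and subsets of libraries, and an exonic length offset, a fit without libraries high in markers of other cells and a block for sets of 4 consecutively numbered columns, all chosen after seeing the data. On simulated counts the share of false calls lay above the nominal rate. Figures were drawn with Python 3.11.15 and matplotlib 3.10.9.

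Named genes were the receptors and ligand, the 12 genes with the smallest p called in each direction and up to 3 members of each list with the smallest p; some of these genes are not reported here. The members and lists were chosen with earlier results of these data known, and the lists were compiled by hand. Since PCR copies were counted without molecular identifiers, reads are not independent molecules and depth covers counting error only.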

Additional observations from a re-analysis of the deposited data

Results flagged for a closer look

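In each group of 4 libraries, the gap of the highest or lowest library to the nearest other was divided by the range of the group, and 17 of 189 groups tested exceeded the 95% critical value of Dixon; chance alone is expected to exceed it in about 1 in 20 groups. Gene values are log2(CPM + 1). A ratio of 1 means that all other libraries of the group had the same value, here 0, and it arose for Dusp4 in central WT library B, Chil5 in central WT library D, Ptprf in endosteal library B labelled Gfra2-/-, Gfra2 in endosteal WT library D and in central WT library C, Gfra1 and Ret in central WT library A, Ret in endosteal library C labelled Gfra2-/- and Nrtn in endosteal WT library B. Gfra1 in endosteal library D labelled Gfra2-/- was high with a ratio of 0.963. Of the other called genes, Slc7a8 was low in endosteal library C labelled Gfra2-/- (0.839), Gda was low in central WT library C (0.887) and Gm42418 was high in endosteal WT library A (0.857). The share of reads without a feature was low in endosteal WT library A (0.863). Summed markers of megakaryocytes were high in endosteal library A labelled Gfra2-/- (0.871), those of neutrophils were high in central WT library D (0.967) and those of mast cells and basophils were low in endosteal WT library B (0.844).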

How the results depend on the processing

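The 124 genes called in the additive fit, and the 124 with the same sign in both compartments, became 37 and 37 at an FDR of 0.05, 66 and 66 without a filter on low counts, 231 and 231 with at least 10 counts in every library, 231 and 231 with limma-voom, 1247 and 1233 with DESeq2's Wald test and 82 and 82 without the compartment term, and 36 and 36 with a replicate block. They became 22 and 22 when the 2 shallowest libraries (826487 and 1230252 reads on genes) were left out, 18 and 18 without the 2 endosteal libraries labelled Gfra2-/- with 9 or more Gfra2 counts, and 0 and 0 with edgeR both without the 4 libraries with under 0.5% spike-in reads (1696 at an unadjusted p under 0.05) and without the 4 libraries high in markers of other cells (1665). The length offset gave 281 and 281, the endosteal libraries alone 0 (868 at an unadjusted p under 0.05) and the central libraries alone 6. With each library left out the counts ranged from 15 to 159; 9 libraries moved them by over 1.5 times, with 38 genes without endosteal WT library A, 55 without D, 54, 54 and 53 without central WT libraries A, B and C, 72 without endosteal library D labelled Gfra2-/-, and 15, 29 and 49 without central libraries A, B and C labelled Gfra2-/-. The causes were not tested. The 1 gene called within endosteal libraries became 27 with spike-in size factors, 6 without a filter, and 0 at an FDR of 0.05, with thinned counts, without the low spike-in libraries, without the 2 shallowest libraries, without the Gfra2 count libraries and without the marker libraries, and ranged from 0 to 1 with each library left out. The 4 called within central libraries became 2 at an FDR of 0.05, 24 with spike-in size factors, 37 without a filter, 96 with at least 10 counts, 48 with thinned counts, 17 with the length offset, 1 without the low spike-in and 1 without the marker libraries and 0 without the 2 shallowest libraries, and ranged from 0 to 37 with each library left out. The interaction, 0 genes in the main analysis (1074 at an unadjusted p under 0.05), had 193 with spike-in size factors and 0 with each library left out. Of the named genes, Nrtn turned to 0.084, Hsp90ab1 to 0.32 and Prdx2 to 0.16 (log2 fold change) with spike-in size factors, and Nrtn to 0.095 with limma-voom, to 0.90 without the 2 shallowest libraries and to between -1.61 and 1.64 with each library left out. Genes called higher made up 34.7% of the calls in the main analysis, 87.7% with spike-in size factors (171 genes), 23.2% with thinned counts (181) and 17.8% with the length offset. The 124 called genes kept their direction wherever tested in every fit with a library left out, in 121 of 124 cases with spike-in size factors and in 123 of 124 with limma-voom. All these fits share libraries with the main analysis, so the kept directions are not independent of the calls. The shallowest library had 826487 reads on genes, and with all libraries thinned to this total 181 genes were called. The columns carry no replicate numbers; the replicate block, added after seeing the data, took each 4 consecutively numbered columns as a set, which no label states. Of its 36 genes 33 were among the 124, and the deviations of libraries from their group means correlated at -0.024 to 0.044 within sets (21 pairs), with 6 of 15 libraries correlating best with their own set.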

Other observations

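The other gene lists gave no or single calls in the additive fit. Of 35 tested interferon genes, 22 immediate-early genes, 23 of TGF-beta and SMAD signalling, 18 of the BCL2 family, 35 of DNA methylation and Polycomb, 18 imprinted genes and 50 of autophagy and lysosomes, 0 were called with edgeR, with median log2 fold changes of 0.13, -0.07, -0.11, -0.39, -0.09, 0.21 and 0.00 against 0.11 over all genes. Cited2, a transcriptional coregulator needed by HSCs and listed with quiescence, had -1.29 (SE 0.37, edgeR adjusted p = 0.143), and Ctsb, a protease of lysosomes, had 0.72 (SE 0.22, edgeR adjusted p = 0.165). Of the 10 listed endothelial markers 7 were tested and 0 called; Eng, which HSCs also express, had 0.99 (SE 0.25, edgeR adjusted p = 0.104). Spp1, which encodes osteopontin of the endosteal niche, had 542 and 340 counts in endosteal WT libraries B and C, 58 in central WT library D and at most 3 in the other 12 libraries (edgeR adjusted p = 0.108); 0 of 7 tested stromal and osteolineage markers were called. Likewise 0 were called of 9 tested megakaryocyte, 7 dendritic, 3 T and NK cell, 2 mast cell and basophil and 3 neural markers and of the 6 surface markers of the sort.

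All 9 tested B-cell markers had a positive log2 fold change, with a median of 4.13, and 0 were called. The median was 1.04 without the 4 libraries high in markers of other cells and 1.40 without the 4 low in spike-in RNAs, with 7 markers tested in each, and 0.90 without the 2 endosteal libraries with Gfra2 counts. Cd79a, a chain of the B-cell receptor complex, had at most 3 counts in the 8 WT libraries, while its counts in libraries labelled Gfra2-/- were 26, 14, 0 and 3676 in endosteal BM and 0, 236 and 303 in central BM. Igkj1, a joining segment of the immunoglobulin light chain, was among the genes called higher. The 5 tested neutrophil markers were all negative, with a median of -3.31, which was -1.27 and -1.38 over the 4 tested without the marker and without the low spike-in libraries. Transcripts of the Y chromosome (Ddx3y, Eif2s3y, Kdm5d and Uty) were found in all 15 libraries and Xist had between 0 and 252 counts, and 0 of these genes were called.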
